A study of Mus musculus with 11 samples.

Results

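The genes described here are those of blood clotting and of clot removal that hepatocytes and liver endothelium supply. A list of 38 gene symbols was matched to the platform's annotation, and where a symbol had several transcript clusters (the array's unit, one gene's set of probes) the one brightest over all arrays was taken. Of the 38 symbols 35 were matched, among 22206 transcript clusters in all, and F2rl1, Cpb2 and Klkb1 were not analysed here. They were measured in RNA of liver sinusoidal endothelial cells (LSEC), the fenestrated cells that line the liver's capillaries, on Mouse Clariom S arrays. Mice were 8 weeks old at the start and received a high fat diet for 2 weeks. The 6 wild type arrays came from mice with both Atg5 alleles floxed and no Cre (Atg5lox/lox), and the 5 knockout arrays from mice with the same floxed alleles and a Cre recombinase driven by the VE-cadherin promoter (Atg5lox/lox;VE-cadherin-Cre). VE-cadherin marks endothelium of every vessel type, so the Cre is not particular to LSEC. Both genotypes were on the diet, and no array of mice on normal chow was part of the comparison. The sex of the mice and the way the cells were isolated are not given in the sources used here. The comparison asks how loss of endothelial autophagy, for which Atg5 is needed, goes with the RNA levels of these genes.

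In clotting, tissue factor (F3) on cells outside the blood stream binds factor VII, and a chain of plasma proteases with their cofactors leads to thrombin (F2), which cuts fibrinogen into fibrin. Antithrombin, heparin cofactor II and the protein C system restrain the chain, and plasmin, made from plasminogen by tissue and urokinase activators, dissolves fibrin. Hepatocytes secrete most of the plasma proteins among them, several after vitamin K dependent carboxylation. Endothelium supplies factor VIII, von Willebrand factor, thrombomodulin, the endothelial protein C receptor and tissue factor pathway inhibitor, and LSEC are a known source of factor VIII.

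The labelled cell type was well represented. All 19 LSEC markers read above the arrays' antigenomic background (probes that match no mouse sequence) in all 11 arrays, and their mean, on the log2 scale, came to 11.72 ± 0.12 (SD, n = 6) for wild type arrays and 11.72 ± 0.12 (SD, n = 5) for knockout arrays (exact permutation p = 0.989). Markers of other cells were also present. Hepatocyte, macrophage and platelet marker means differed by genotype at an exact permutation p under 0.05, with overlapping ranges. Stellate cell, bile duct, neutrophil, lymphocyte and large vessel marker means did not, as given with the processing below. These p-values were not adjusted over the marker lists. The mean of 19 hepatocyte markers ran from 8.49 to 9.77 in wild type and from 7.57 to 9.04 in knockout (exact permutation p = 0.0433), with all 19 below 0 and 11 lower by the study's rule. The mean of 17 macrophage markers ran from 7.03 to 8.31 and from 7.54 to 10.04 (exact permutation p = 0.0195), with all 17 above 0 and 16 higher by the rule. The mean of 8 platelet markers ran from 6.78 to 7.12 and from 6.71 to 6.82 (exact permutation p = 0.0216), with all 8 below 0 and 0 by the rule. In 4 arrays the array's intron control probes stood apart. Their mean was 5.94 and 5.96 in wild type arrays 1 and 6 and 5.75 in knockout arrays 3 and 4, against 5.05 to 5.38 in the other 7. Atg5 averaged 7.50 ± 0.09 (SD, n = 6) without Cre and 7.60 ± 0.17 (SD, n = 5) with Cre (exact permutation p = 0.245). Where its probes lie relative to the floxed part is not known here, so every direction below follows the labels.

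The endothelial members F8 and Procr were higher without overlap in the 4 arrays whose intron control probes stood apart, as 6.89% of all clusters were. The promoters of these 2 members and of the 5 members that met the study's rule are printed here. Each runs from 250 bases before to 50 bases after the gene's start, 5′ to 3′ on the gene's strand, from RefSeq on GRCm38.p6. Capitals mark matches on either strand to short forms of 4 motifs. For HNF1, a factor of hepatocytes, the letters searched were GTTAAT. For HNF4A, another factor of hepatocytes, they were CAAAGT. For the ETS family, which includes factors of endothelium, they were CGGAAG. For the GATA family of transcription factors, the fourth motif was searched with the letters AGATAA. A match is a description of these letters and not a site that was measured.
Fga: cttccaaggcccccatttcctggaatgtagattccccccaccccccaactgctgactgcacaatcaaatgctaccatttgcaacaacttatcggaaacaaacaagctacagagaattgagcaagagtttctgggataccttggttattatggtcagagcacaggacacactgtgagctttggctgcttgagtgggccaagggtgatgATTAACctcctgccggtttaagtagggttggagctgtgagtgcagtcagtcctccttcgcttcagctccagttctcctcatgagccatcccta
Fgb: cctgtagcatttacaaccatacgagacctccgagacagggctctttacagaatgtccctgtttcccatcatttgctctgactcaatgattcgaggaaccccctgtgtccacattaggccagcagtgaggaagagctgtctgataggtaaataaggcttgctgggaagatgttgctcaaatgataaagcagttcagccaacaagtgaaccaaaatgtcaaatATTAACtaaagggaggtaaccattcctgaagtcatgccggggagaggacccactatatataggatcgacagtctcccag
Fgg: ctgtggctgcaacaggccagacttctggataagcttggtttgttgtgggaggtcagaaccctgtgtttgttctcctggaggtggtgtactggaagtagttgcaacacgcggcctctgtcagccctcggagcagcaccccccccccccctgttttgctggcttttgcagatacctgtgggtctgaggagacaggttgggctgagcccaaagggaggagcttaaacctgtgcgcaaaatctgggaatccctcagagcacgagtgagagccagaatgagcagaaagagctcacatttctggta
Serpinc1: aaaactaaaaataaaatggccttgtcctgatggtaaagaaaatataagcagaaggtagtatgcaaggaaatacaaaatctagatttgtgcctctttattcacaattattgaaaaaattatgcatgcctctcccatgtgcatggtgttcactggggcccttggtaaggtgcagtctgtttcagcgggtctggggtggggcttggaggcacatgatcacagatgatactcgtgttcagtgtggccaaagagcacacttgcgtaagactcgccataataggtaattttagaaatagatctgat
Hrg: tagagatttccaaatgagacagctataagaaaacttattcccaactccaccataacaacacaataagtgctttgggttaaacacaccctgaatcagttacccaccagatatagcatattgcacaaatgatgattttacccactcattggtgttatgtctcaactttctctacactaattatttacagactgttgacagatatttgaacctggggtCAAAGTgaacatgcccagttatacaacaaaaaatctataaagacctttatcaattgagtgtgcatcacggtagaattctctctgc
F8: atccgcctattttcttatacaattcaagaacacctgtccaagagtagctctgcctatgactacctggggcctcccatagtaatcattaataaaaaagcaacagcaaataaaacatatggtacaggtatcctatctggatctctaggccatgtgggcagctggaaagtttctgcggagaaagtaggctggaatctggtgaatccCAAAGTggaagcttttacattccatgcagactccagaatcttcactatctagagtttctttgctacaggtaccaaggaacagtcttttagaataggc
Procr: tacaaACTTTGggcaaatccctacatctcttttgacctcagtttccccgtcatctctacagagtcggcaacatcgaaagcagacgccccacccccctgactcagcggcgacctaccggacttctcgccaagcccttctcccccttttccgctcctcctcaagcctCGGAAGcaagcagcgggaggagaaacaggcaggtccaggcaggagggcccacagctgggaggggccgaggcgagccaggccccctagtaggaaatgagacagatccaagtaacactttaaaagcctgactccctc

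The windows lie at chr3:83025903-83026202, + strand (Fga), chr3:83049814-83050113, - strand (Fgb), chr3:83007474-83007773, + strand (Fgg), chr1:160978333-160978632, + strand (Serpinc1), chr16:22950822-22951121, + strand (Hrg), chrX:75379992-75380291, - strand (F8) and chr2:155750967-155751266, + strand (Procr). Fgg, Fga and Fgb are next to each other on chromosome 3 with 0 protein-coding genes between neighbours. Fga and Fgb each hold 1 HNF1 match, which begins 43 and 29 bases before the start, and Fgg holds none of the 4 motifs in this window. Hrg holds an HNF4A match 35 bases before its start, and Serpinc1 holds none of the 4. F8 holds 1 HNF4A match, and Procr holds 1 HNF4A and 1 ETS match. Promoters were found for 27 of the 35 measured members, and 25 had a single one. HNF1 was matched in 5 of 17 such promoters of the plasma protein genes and in 0 of 8 of the other members, against 7.1% of all 32851 promoters. HNF4A was matched in 5 of the 17 and in 3 of the 8, against 14.4% of all promoters. The ETS letters were matched in 2 of the 17 and 2 of the 8, against 16.9% of all promoters. For GATA the counts were 1 of the 17 and 0 of the 8, against 11.2%.

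Among the plasma proteins made mainly in hepatocytes, RNA of the 3 fibrinogen chains, antithrombin and histidine-rich glycoprotein was lower in knockout by the study's rule, which asks for a 1.5-fold or larger difference and a p up to 0.05 before adjustment, here from limma. The differences (knockout minus wild type, log2) of the 20 measured genes of this kind ran from -1.03 to 0.14. Their median was -0.42, against -0.018 over all clusters, and 19 of 20 lay below 0, where 54.0% of all clusters did. The 19 include F7, F10 and F11, at -0.02, -0.02 and -0.01, and F9, mostly below the antigenomic background. With each array centred on its median, 16 of the 20 lay below 0. By the rule 5 of the 20 were lower and 0 higher, and over all 35 members also 5 were lower (14.3%) and 0 higher, against 0.356% and 0.671% of all clusters and 1.03% in either direction. That background moved with single arrays. In the genotype comparison over all clusters 79 were lower, and the number became 50 or 37 when wild type array 4 or 5 was dropped, 48, 40 or 38 when knockout array 1, 4 or 5 was, and 138 when knockout array 2 was. None of the 35 passed an adjusted p of 0.05 in limma with Benjamini-Hochberg adjustment over all clusters (lowest 0.76), nor did any of the 22206 clusters. At an unadjusted limma p under 0.05, 10 members (28.6%), all lower in knockout, and 1419 clusters (6.39%) passed, with 3.78% of all clusters passing as lower. None of the 35 had all knockout arrays below all wild type arrays, as 0.293% of all clusters did. Hepatocyte markers were lower in the same arrays. Fewer hepatocytes in a preparation and less RNA of these genes per hepatocyte cannot be told apart in bulk RNA.

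**Figure D1:**
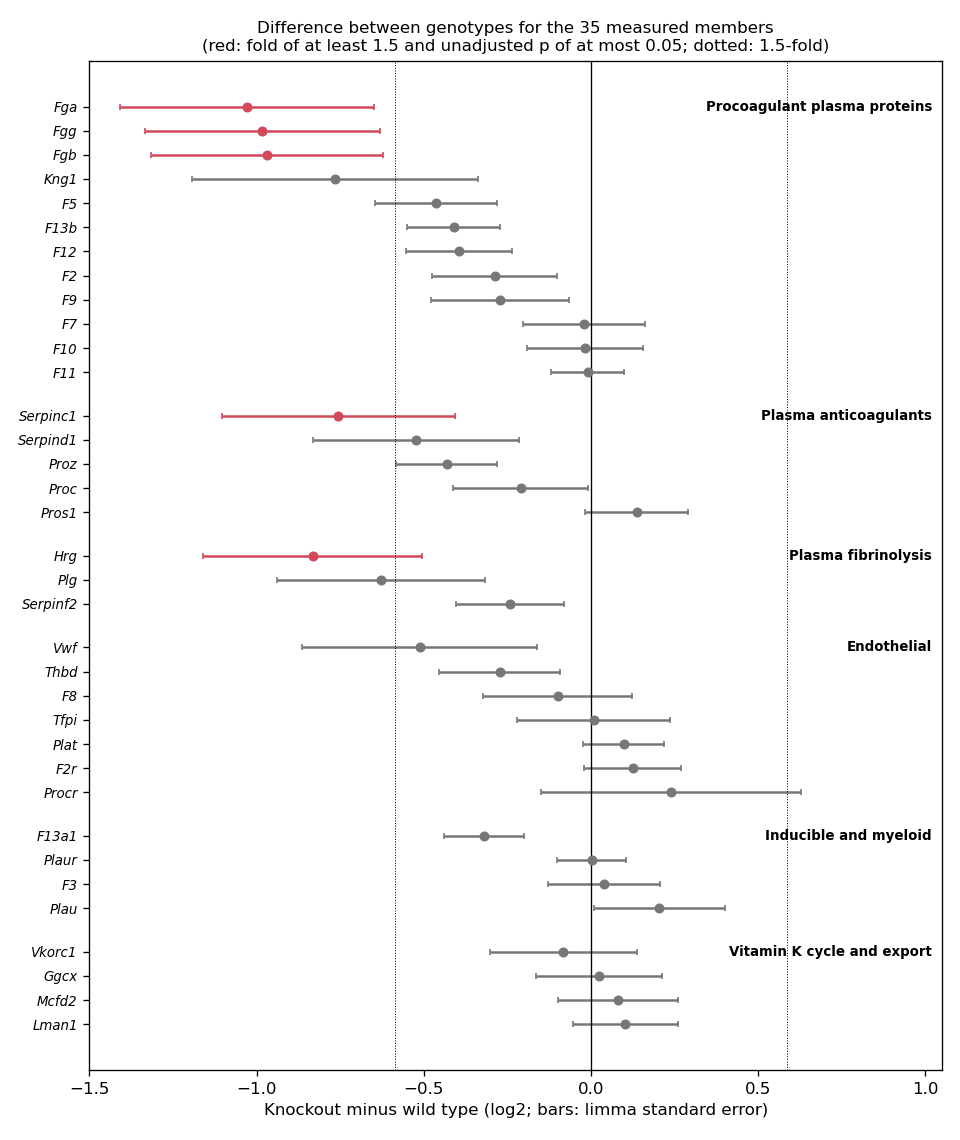
Knockout minus wild type difference on the log2 scale (x axis) for each of the 35 measured members (y axis), by role; points are limma estimates over 6 wild type and 5 knockout arrays and bars their standard errors. The 5 red members met the study's rule, all of them plasma protein genes, while the endothelial members lie between -0.51 and 0.24.

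The 3 fibrinogen chains form one secreted protein. Fga, the alpha chain, read 9.57, 8.43, 9.84, 9.84, 10.53 and 8.82 in wild type arrays 1 to 6 and 8.64, 9.61, 8.41, 7.84 and 7.88 in knockout arrays 1 to 5. Knockout arrays 1 and 2 lay within the wild type range, wild type arrays 1, 2 and 6 lay within the knockout range, and the groups overlapped. The means were 9.51 ± 0.76 (SD, n = 6) and 8.48 ± 0.72 (SD, n = 5), a 2.04-fold lower level in knockout (log2 -1.03, SE 0.38, limma p = 0.018, exact permutation p = 0.052). Fgb, the beta chain, read 9.22, 8.29, 9.38, 9.33, 10.27 and 8.66 in wild type and 8.32, 9.27, 8.20, 7.54 and 7.78 in knockout, 1.96-fold lower (exact permutation p = 0.0498, n = 6 and 5). Fgg, the gamma chain, read 10.13, 8.97, 10.25, 10.05, 10.99 and 9.34 in wild type and 9.10, 10.02, 8.74, 8.37 and 8.63 in knockout, 1.98-fold lower (exact permutation p = 0.0476, n = 6 and 5). The same arrays were high and low in each chain. Fgb and Fgg met the rule whichever single array was left out, and Fga missed it without knockout array 4 (-0.87) or 5 (-0.88). Within the 7 arrays of lower intron control the differences were -0.95, -0.86 and -0.82 for Fga, Fgb and Fgg, and 0 of the 20 plasma protein genes met the rule there.

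The chains followed each other from array to array within each genotype. After subtraction of the genotype means, Pearson's r over 11 arrays was 0.987 for Fga with Fgb, 0.983 for Fga with Fgg and 0.987 for Fgb with Fgg (permutation p = 4e-05, 0.0001 and 6e-05; adjusted over the 14 relations computed, 0.00028, 0.00035 and 0.00028). Spearman's rho was 0.98, 0.952 and 0.945 (permutation p = 4e-05, 0.00071 and 0.00021; adjusted p = 0.00056, 0.00248 and 0.00135). Leaving out the 2 arrays farthest from the x median gave r of 0.989, 0.977 and 0.981. Fga also followed the hepatocyte marker mean (r = 0.875, permutation p = 0.00104, adjusted p = 0.00291; rho = 0.856, permutation p = 0.00271, adjusted p = 0.00759). Leaving out the 2 farthest arrays gave r = 0.798 with an adjusted permutation p of 0.0526. Serpinc1 followed that mean as well (r = 0.95, permutation p = 5e-05, adjusted p = 0.00028; rho = 0.955, permutation p = 0.00029, adjusted p = 0.00135), with r = 0.916 without the 2 farthest arrays. Within the 7 arrays of lower intron control the 5 values of r were 0.987, 0.988, 0.996, 0.853 and 0.961.

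**Figure D2:**
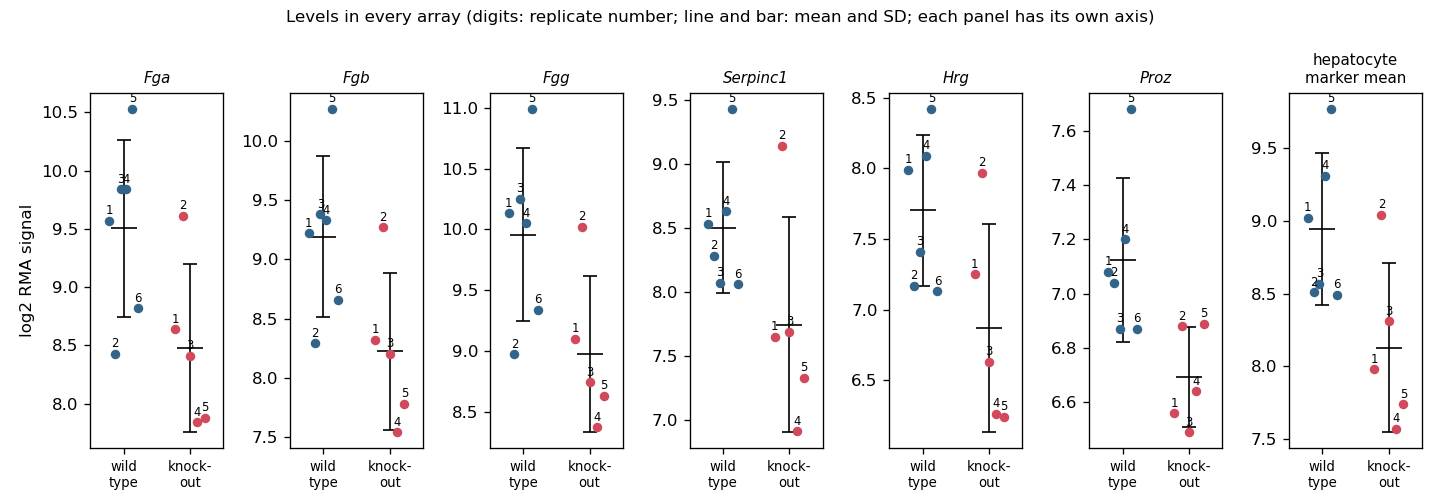
Log2 RMA signal (y axis, a separate scale in each panel) of 6 plasma protein genes and of the hepatocyte marker mean in every array, by genotype (x axis); digits are replicate numbers, and black lines and bars are means and SD. Wild type array 5 is the highest array in each panel and knockout array 2 lies within the wild type range in each, as low as 6.88 for Proz.

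The other procoagulant plasma proteins differed less. F13b, the carrier subunit of the fibrin cross-linking factor XIII, read 5.42, 5.45, 5.17, 5.55, 5.56 and 4.83 in wild type and 4.74, 5.01, 4.86, 4.94 and 5.05 in knockout (log2 -0.41, SE 0.14, exact permutation p = 0.024). Only wild type array 6 reached into the knockout range, but 3 of 5 knockout arrays read below the antigenomic background, so the size of this difference is uncertain. F2, prothrombin, read 8.44, 7.95, 7.87, 8.08, 8.71 and 7.78 in wild type and 7.73, 8.35, 7.58, 7.85 and 7.74 in knockout, with a difference (log2 -0.29, SE 0.19, exact permutation p = 0.18) that did not stand out from the spread between arrays. The cofactor F5 (log2 -0.46, SE 0.18) and the contact factor F12 (-0.39, SE 0.16) had all 5 knockout arrays below the wild type mean and exact permutation p of 0.048 and 0.054 (n = 6 and 5), with folds of 1.38 and 1.31. Kng1, kininogen, the cofactor of contact activation, was 1.7-fold lower with wide scatter (log2 -0.77, SE 0.43, exact permutation p = 0.18). F9, a protease of the chain, read below the antigenomic background in 4 wild type and 4 knockout arrays, so its value of -0.27 says nothing of expression. The proteases F7 (log2 -0.02, SE 0.18), F10 (-0.02, SE 0.17) and F11 (-0.01, SE 0.11) were closest to 0 among the plasma protein genes. F7, F10 and the anticoagulant gene Proz lie next to each other on chromosome 8, with 0 protein-coding genes between neighbours, and Proz stood at -0.43.

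Among the plasma anticoagulants, Serpinc1 (antithrombin, the main inhibitor of thrombin) met the rule. It read 8.53, 8.28, 8.07, 8.63, 9.43 and 8.06 in wild type and 7.65, 9.14, 7.69, 6.91 and 7.33 in knockout. All knockout arrays but array 2 lay below the whole wild type range. The fold was 1.69 (log2 -0.76, SE 0.35, limma p = 0.049, exact permutation p = 0.11), and the rule was missed when any one of 8 of the 11 arrays was left out, with the smallest difference of -0.55 without knockout array 4. Proz, protein Z, which helps to inhibit factor X, read 7.08, 7.04, 6.87, 7.20, 7.68 and 6.87 in wild type and 6.56, 6.88, 6.49, 6.64 and 6.89 in knockout. The overlap was confined to wild type arrays 3 and 6 with knockout arrays 2 and 5, and the difference (log2 -0.43, SE 0.15, exact permutation p = 0.022) was under 1.5-fold. Serpind1, heparin cofactor II, read 7.21, 6.70, 6.94, 7.35, 8.21 and 6.93 in wild type and 6.59, 7.86, 6.38, 6.18 and 6.49 in knockout (log2 -0.52, SE 0.31, exact permutation p = 0.18). Its knockout array 2 stood well above the other knockout arrays. Proc, protein C itself, differed by -0.21 (SE 0.20). Pros1, protein S, the cofactor of protein C that endothelium makes as well as hepatocytes, was the one plasma protein gene above 0. It read 11.58, 10.79, 11.64, 11.27, 11.58 and 11.56 in wild type and 11.52, 11.32, 11.74, 11.56 and 11.56 in knockout (log2 0.14, SE 0.15, exact permutation p = 0.50), and wild type array 2 was low.

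Of the fibrinolysis genes in plasma, Hrg, histidine-rich glycoprotein, which binds plasminogen and heparin, met the rule. It read 7.99, 7.17, 7.41, 8.09, 8.42 and 7.13 in wild type and 7.25, 7.97, 6.63, 6.26 and 6.24 in knockout, 1.78-fold lower (log2 -0.83, SE 0.33, exact permutation p = 0.069). Knockout arrays 1 and 2 lay within the wild type range and the other 3 below it. Hrg missed the rule when wild type array 4 (-0.75) or 5 (-0.69) was dropped, and likewise knockout array 3 (-0.77), 4 (-0.68) or 5 (-0.67). Plg, plasminogen, read 8.42, 8.10, 8.08, 8.70, 9.42 and 7.99 in wild type and 8.01, 8.90, 7.37, 7.32 and 7.52 in knockout, a value of 1.55-fold lower (log2 -0.63, SE 0.31, limma p = 0.063, exact permutation p = 0.12). It met the rule without wild type array 6 (-0.72) or knockout array 2 (-0.90). Serpinf2, the plasmin inhibitor, read 7.98, 7.87, 7.80, 8.20, 8.43 and 7.80 in wild type and 7.90, 8.26, 7.61, 7.52 and 7.57 in knockout (log2 -0.24, SE 0.16, exact permutation p = 0.20), and the groups overlapped.

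Most of the plasma protein genes were highest in the same arrays, and their lowest arrays varied more. Of the 20 genes, 15 had their highest wild type value in array 5, and 13 had their highest knockout value in array 2. The lowest knockout value was in array 4 for 9 genes and in array 3 for 6. In wild type it was in array 6 for 9, array 2 for 7, array 3 for 3 and array 4 for 1. These counts were not taken over all clusters. The hepatocyte marker mean was highest in wild type array 5 (9.77) and knockout array 2 (9.04) and lowest in knockout array 4 (7.57). With that mean as a covariate in the limma fit, 0 of the 20 met the rule, 7 lay below 0 and 13 above, and the median was 0.08. In that fit Fga was at -0.06 (SE 0.26), Fgb at -0.07 (SE 0.22), Fgg at -0.12 (SE 0.26), Serpinc1 at 0.20 (SE 0.18) and Hrg at 0.02 (SE 0.21). F13b (-0.24, SE 0.17) and Proz (-0.18, SE 0.17) were lowest, and Kng1 (0.41, SE 0.21) highest. With the macrophage marker mean as covariate instead, 15 of the 20 were lower by the rule and 0 higher, with a median of -0.73. Leaving out knockout array 2 raised the number called from 5 to 8. It fell to 3 if wild type array 4, wild type array 5 or knockout array 3 was dropped, and was 2 without knockout array 4 or 5.

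**Figure D3:**
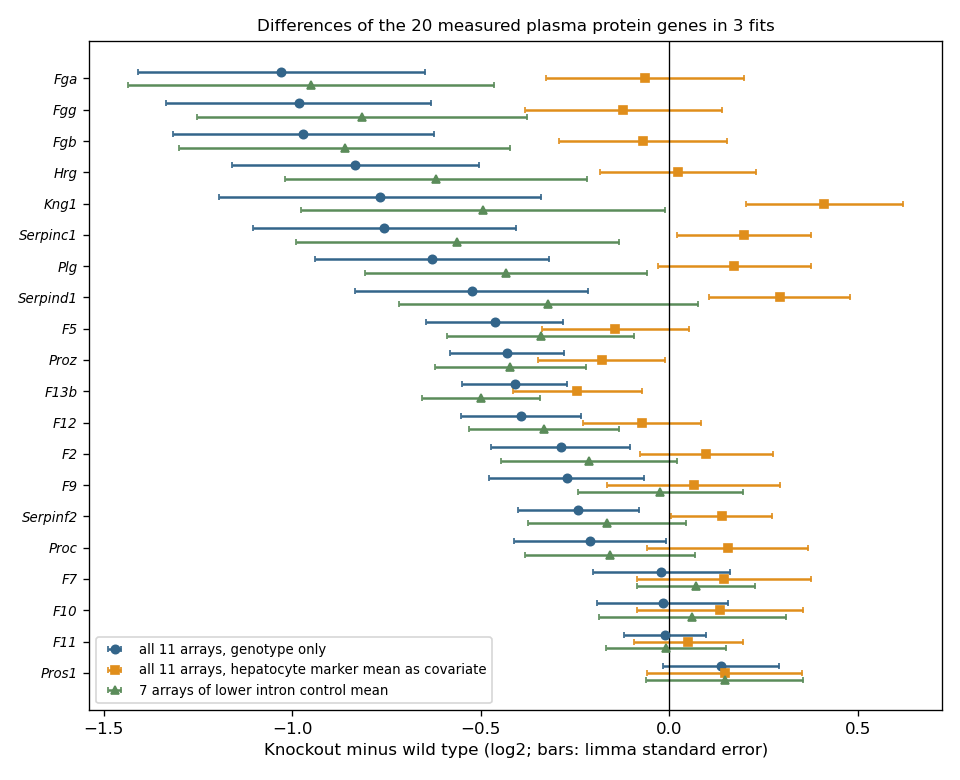
Knockout minus wild type difference (x axis, log2, bars are limma standard errors) of the 20 measured plasma protein genes (y axis) in 3 fits. Circles use all 11 arrays, squares add the hepatocyte mean as covariate, and triangles use the 7 arrays of lower intron control; squares have a median of 0.08 and circles of -0.42.

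None of the 7 endothelial members met the rule, with 3 below 0 and 4 above and a median of 0.008. Their differences ran from -0.51 to 0.24, and at an unadjusted limma p under 0.05 also 0 of the 7 passed. Over all clusters 1.03% met the rule and 6.39% had such a p, so 0 of 7 does not set these members apart. F8, the cofactor factor VIII, read 12.74, 12.18, 12.32, 11.78, 12.18 and 12.67 in wild type and 12.34, 11.39, 12.52, 12.57 and 12.24 in knockout (log2 -0.10, SE 0.22, exact permutation p = 0.70). The 4 highest values were those of the 4 arrays of high intron control, and knockout array 2 was lowest. Without knockout array 2 the difference was 0.11. Within genotypes F8 ran against the LSEC marker mean over 11 arrays (r = -0.684, permutation p = 0.0288, adjusted p = 0.0575). Spearman's rho was -0.706 (permutation p = 0.0174, adjusted p = 0.0349). Leaving out the 2 farthest arrays gave r = -0.7 (adjusted permutation p = 0.0534). Within the 7 arrays of lower intron control r was -0.36 (adjusted permutation p = 0.742). Procr, the endothelial protein C receptor, read 10.89, 9.70, 9.04, 9.43, 9.30 and 10.61 in wild type and 9.70, 9.23, 10.76, 11 and 9.65 in knockout (log2 0.24, SE 0.39, exact permutation p = 0.58). It fell into a high and a low set of arrays that cut across genotype, with a mean of 10.81 in the 4 arrays of high intron control and 9.44 in the other 7. The vitamin K reductase Vkorc1 was split the other way, with 9.81 in the 4 arrays and 10.52 in the 7. Of the 35 members 2 were higher and 1 lower in the 4 arrays without overlap, near the 6.89% and 7.17% of all clusters. The genotype difference of Procr was 0.16 within the 7 arrays and 0.13 within the 4.

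Vwf, von Willebrand factor, which carries factor VIII and binds platelets, gave different values in the 2 sets of arrays. It read 6.92, 8.03, 9.10, 7.91, 8.59 and 6.85 in wild type and 7.30, 7.70, 7.49, 7.35 and 7.10 in knockout, with SDs of 0.89 and 0.22. Over all 11 arrays the difference was -0.51 (SE 0.35, exact permutation p = 0.25). Within the 7 arrays of lower intron control the 3 knockout arrays lay below the 4 wild type arrays without overlap, with means of 7.37 and 8.41, and Vwf met the rule (log2 -1.04, SE 0.28). The exact permutation p there was 0.0571 over 35 splits, against 0.029 as the smallest possible. Within the other 4 arrays the difference was 0.54, with 7.42 in knockout and 6.88 in wild type (2 arrays each). The interaction of genotype with the set of arrays was 1.58 on the log2 scale, with a limma p of 0.0026 and an adjusted p of 0.9999 over all clusters, where 2.47% had an unadjusted p under 0.05. Vwf also met the rule without wild type array 6 (-0.72).

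**Figure D4:**
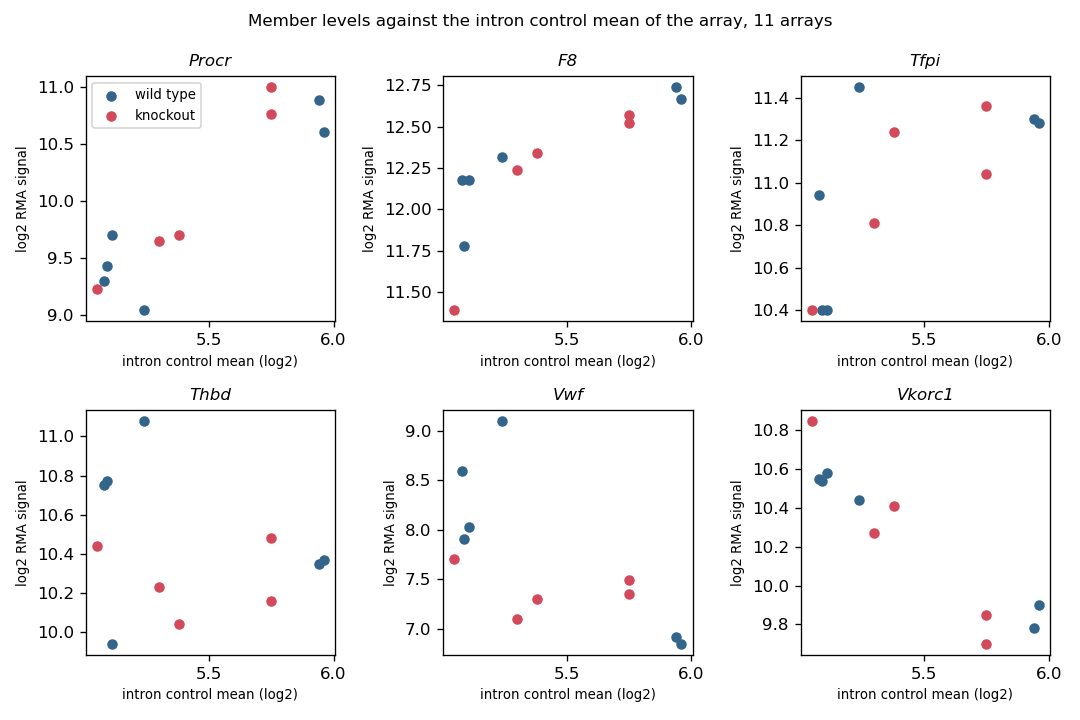
Log2 RMA signal (y axis) of 5 endothelial members and of Vkorc1 against the intron control mean of the array (x axis, log2) in 6 wild type and 5 knockout arrays, 1 point an array. Procr averages 10.81 in the 4 arrays on the right and 9.44 in the other 7, and for Vwf the 3 knockout arrays on the left lie below the 4 wild type arrays.

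The remaining endothelial members showed no difference beyond the spread between arrays. Thbd, thrombomodulin, which turns thrombin into an activator of protein C, read 10.35, 9.94, 11.08, 10.77, 10.75 and 10.37 in wild type and 10.04, 10.44, 10.48, 10.16 and 10.23 in knockout. All 5 knockout arrays were below the wild type mean, yet above wild type array 2 (log2 -0.27, SE 0.18, exact permutation p = 0.20). Tfpi, the inhibitor of the tissue factor complex, read 11.30, 10.40, 11.45, 10.40, 10.94 and 11.28 in wild type and 11.24, 10.40, 11.36, 11.04 and 10.81 in knockout (log2 0.008, SE 0.23, exact permutation p = 0.97). Plat, tissue plasminogen activator, read 6.58, 6.83, 6.61, 6.92, 6.83 and 6.42 in wild type and 6.74, 6.66, 6.63, 7.05 and 6.90 in knockout (log2 0.10, SE 0.12, exact permutation p = 0.41). F2r, the main thrombin receptor of endothelium, read 11.05, 10.64, 11.46, 10.97, 11.36 and 11.03 in wild type and 11.48, 11.20, 11.08, 11.12 and 11.17 in knockout (log2 0.13, SE 0.15, exact permutation p = 0.44). The groups overlapped in each of these genes, and the knockout arrays spanned less than the wild type arrays, most clearly for Thbd (SD 0.19 against 0.40) and F2r (SD 0.16 against 0.29). Procr and Thbd showed no clear relation over the 11 arrays (r = -0.398, permutation p = 0.258, adjusted p = 0.361; rho = -0.536, permutation p = 0.111, adjusted p = 0.173), with r = -0.486 and an adjusted permutation p of 0.242 without the 2 farthest arrays. Procr separates the arrays into 2 sets, however, and within the 7 arrays, a subset chosen after the data were seen, the receptor was low when thrombomodulin was high (r = -0.883, permutation p = 0.0135, adjusted p = 0.0326; rho = -0.964, permutation p = 0.0202, adjusted p = 0.0567), too few arrays to leave any out. Thbd and Vwf had r = 0.596 over 11 arrays (permutation p = 0.155, adjusted p = 0.241; rho = 0.545, permutation p = 0.149, adjusted p = 0.208) and r = 0.782 without the 2 farthest arrays.

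Of the inducible and myeloid genes, F13a1, the catalytic subunit of factor XIII made by macrophages and platelets, differed most. It read 5.92, 6.19, 6.02, 5.98, 6.46 and 6.10 in wild type and 5.94, 5.64, 5.67, 5.74 and 5.97 in knockout (log2 -0.32, SE 0.12, limma p = 0.019, exact permutation p = 0.015). All 5 knockout arrays lay below the wild type mean, at less than 1.5-fold. Macrophage markers were higher and platelet markers lower in the same arrays. F13a1 showed no clear relation to the macrophage marker mean within genotypes (r = 0.288, permutation p = 0.388, adjusted p = 0.47; rho = 0.145, permutation p = 0.683, adjusted p = 0.683). Leaving out the 2 farthest arrays gave r = 0.818 (permutation p = 0.0239, adjusted p = 0.0526), so its size rests on those arrays. Plau, urokinase, read 10.24, 10.56, 9.61, 10.57, 9.82 and 10.30 in wild type and 10.77, 10.52, 10.22, 10.47 and 9.96 in knockout (log2 0.20, SE 0.20, exact permutation p = 0.37). Plaur, its receptor, read 11.93, 12.18, 11.78, 12.04, 12 and 11.97 in wild type and 12.13, 11.97, 11.94, 12.08 and 11.81 in knockout (log2 0.003, SE 0.10, exact permutation p = 0.98). Neither differed by genotype beyond the spread, but both were low in wild type array 3 and knockout array 5. Enzyme and receptor followed each other within genotypes (r = 0.833, permutation p = 0.00249, adjusted p = 0.00581; rho = 0.764, permutation p = 0.0145, adjusted p = 0.0339), with r = 0.886 without the 2 farthest arrays and 0.889 within the 7 arrays of lower intron control. F3, tissue factor, read 7.30, 7.18, 7.55, 7.26, 8.08 and 6.99 in wild type and 7.30, 7.38, 7.41, 7.48 and 7.59 in knockout (log2 0.04, SE 0.17, exact permutation p = 0.86), with wild type array 5 highest.

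The genes of the vitamin K cycle and of export from the endoplasmic reticulum did not differ by the rule. Lman1 and Mcfd2 encode the receptor pair that carries factors V and VIII out of the endoplasmic reticulum. Lman1 read 9.84, 9.51, 10.47, 10.04, 10.34 and 10.06 in wild type and 10.29, 10.27, 10.04, 10.02 and 10.11 in knockout (log2 0.10, SE 0.16, exact permutation p = 0.57). Mcfd2 read 8.81, 9.16, 9.32, 9.29, 9.15 and 8.48 in wild type and 9.14, 9.62, 9.07, 8.75 and 9 in knockout (log2 0.08, SE 0.18, exact permutation p = 0.69). The groups overlapped in both genes, with knockout array 2 highest for Mcfd2, and the pair did not show a clear relation (r = 0.312, permutation p = 0.403, adjusted p = 0.47; rho = 0.427, permutation p = 0.222, adjusted p = 0.283). Ggcx, the carboxylase that modifies the vitamin K dependent factors, differed by 0.02 (SE 0.19). Vkorc1, which regenerates reduced vitamin K, read 9.78, 10.58, 10.44, 10.54, 10.55 and 9.90 in wild type and 10.41, 10.85, 9.85, 9.70 and 10.27 in knockout (log2 -0.08, SE 0.22, exact permutation p = 0.74). Its low arrays were those of high intron control in both genotypes.

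Among 30 measured genes of haemostasis outside the list, 1 was lower and 0 higher by the rule, with a median difference of 0.05 and 14 of 30 below 0. Over all clusters 0.356% were lower and 1.03% were called in either direction. At an unadjusted limma p under 0.05, 2 of the 30 passed, near the 6.39% of all clusters. The lower one was Serpina10, the protein Z dependent protease inhibitor, which hepatocytes secrete. It read 6.41, 6.63, 6.84, 6.96, 7.19 and 6.19 in wild type and 6.38, 6.30, 5.94, 5.61 and 5.83 in knockout, 1.61-fold lower (log2 -0.69, SE 0.19, limma p = 0.0032, exact permutation p = 0.015). Its partner Proz was lower as well by a smaller amount, as given above. Serpina10 met the rule whichever single array was left out, and beside the hepatocyte marker mean in the fit it was at -0.34 (SE 0.20). Tbxas1, the thromboxane synthase of macrophages and platelets, was the other gene of the 30 with an unadjusted limma p under 0.05 (log2 0.56, SE 0.23, exact permutation p = 0.035) and was picked out after its value was seen. With the macrophage marker mean as covariate it was at 0.04 (SE 0.22), and with the hepatocyte marker mean at 1.07 (SE 0.19). The von Willebrand factor protease Adamts13 (log2 0.42, SE 0.37) and the tissue factor pathway inhibitor paralogue Tfpi2 (0.10, SE 0.34) had differences close to their standard errors or below them.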

How the data were processed

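RNA from LSEC was hybridized to 11 Mouse Clariom S arrays. The authors normalized them by RMA in Affymetrix Expression Console, per the submitters' processing notes, which list no version. RMA subtracts background, gives all arrays one distribution and summarizes probes, and so would hide a shift of most genes. The deposited values are log2, as their range (2.15 to 13.79) shows. The genome build is not given in the sources used here, and the promoters are those of RefSeq on GRCm38.p6.

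Of the rows, 22206 clusters were tested and 6640 control rows left out. Of the clusters 19572 carried 1 symbol in the platform's annotation, 0 several and 2634 none. Genotypes, taken from the titles, entered a fit in limma 3.58.1 and R 4.3.3 (genotype only, Benjamini-Hochberg over all clusters); the study's rule names no test, so limma gave its p. Two-sided exact permutation used all 462 splits of 6 and 5 arrays (smallest p 0.0022). Relations used 100000 permutations within genotype, in numpy 2.4.6. The titles call replicates biological without naming animals, and p-values therefore cover only the spread of these samples, which may be technical, and the number of arrays limits precision. Correlations of deviations of same-numbered arrays ran from -0.32 to 0.39, so the numbers were treated as names.

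Members, lists and named genes (those that met the rule, the 3 of smallest p in each of 6 roles, and a fixed set) were chosen with earlier results of these data known. Stellate cell, bile duct, neutrophil, lymphocyte and large vessel markers differed by 0.32, -0.23, -0.03, 0.10 and 0.06 in mean (exact permutation p = 0.20, 0.12, 0.95, 0.53 and 0.59). Alternatives covered arrays, the replicate block, normalization, weights, covariates, dim clusters and thresholds.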

Additional observations from a re-analysis of the deposited data

Results flagged for a closer look

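In 70 groups examined (35 members in each genotype), 3 held an array far from the others of its group by Dixon's ratio at the 95% level, where chance gives about 1 in 20. F7 read 5.29 in wild type array 6, against 5.81 to 6.05 in the other wild type arrays. Serpind1 read 7.86 in knockout array 2, against 6.18 to 6.59 in the other knockout arrays, and that array also had the highest hepatocyte marker mean of its genotype (9.04). F8 read 11.39 in knockout array 2, against 12.24 to 12.57 in the others, and that array had the lowest intron control mean (5.05) and the highest macrophage marker mean (10.04) of the 11. The part of these measures in the 3 values was not tested.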

How the results depend on the processing

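Of the 35 members 13 kept their direction in every alternative run, and the limit throughout is the small number of arrays. They include Fga, Fgb and Fgg, which came nearest to 0 with the hepatocyte covariate.

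In the genotype comparison over all clusters 228 met the study's rule (79 lower and 149 higher), 171 to 314 with single arrays left out (37 to 138 lower and 111 to 245 higher), 504 with the hepatocyte and 1678 with the macrophage marker mean as covariate, 544 at a fold of 1.3, 60 at a fold of 2, 0 at the adjusted p and 359 without the 4 arrays of high intron control, a choice made after the data were seen. In the same settings the 5 plasma protein genes became 2 to 8, 0, 15, 9, 1, 0 and 0, and array weights gave 9, with 146 clusters lower and 99 higher overall. The 0 endothelial members became 0 to 1 with single arrays left out and 1 with the replicate block (Vwf, -0.722), with the macrophage covariate (Procr, 1.083) and without the 4 arrays (Vwf, -1.041). The 0 other members became 1 with the macrophage covariate (Vkorc1, -0.600). The 1 other haemostasis gene became 1 to 3 with single arrays left out, 2 with median centring, array weights or a fold of 1.3, 3 and 4 with the hepatocyte and macrophage covariates, and 0 at a fold of 2 or the adjusted p. The replicate block left 4 plasma protein genes called, with Serpinc1 at -0.844 not among them.

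The values that changed sign follow. With the hepatocyte covariate the values were F2 0.099, F7 0.145, F9 0.065, F10 0.135, F11 0.051, Kng1 0.412, Proc 0.155, Serpinc1 0.199, Serpind1 0.293, Plg 0.173, Serpinf2 0.139, Hrg 0.024, Procr -0.196, Tfpi -0.217, Vkorc1 0.222 and Tfpi2 -0.113. These include Serpinc1 and Hrg, which met the rule without the covariate, and Kng1, Plg and Serpind1, which stood at -0.766, -0.628 and -0.523. With the macrophage covariate they were F8 0.442, F3 -0.136, Plaur -0.005, Ggcx -0.402, Lman1 -0.053, Mcfd2 -0.236 and Adamts13 -0.563. Array weights gave F11 0.005, F8 0.025, F3 -0.001, Plaur -0.005, Ggcx -0.131 and Mcfd2 -0.023. Repeated quantile normalization gave F7 0.042, F11 0.070, Tfpi -0.049, Plaur -0.004, Ggcx -0.082, Mcfd2 -0.022 and Tfpi2 -0.002. Median centring gave F7 0.019, F10 0.022 and F11 0.029. The intron control covariate gave F7 0.002 and Tfpi -0.024, and the replicate block F3 -0.042 and Mcfd2 -0.030. Without the 4 arrays they were F7 0.071, F10 0.062, Plat -0.031, F3 -0.094, Plaur -0.030 and Tfpi2 -0.097. With single arrays left out, F7 ran from -0.132 to 0.128, F10 from -0.148 to 0.090, F11 from -0.068 to 0.044, F8 from -0.206 to 0.106, Tfpi from -0.104 to 0.151, F3 from -0.042 to 0.176, Plaur from -0.038 to 0.047, Ggcx from -0.147 to 0.093, Vkorc1 from -0.241 to 0.047, Lman1 from -0.004 to 0.188, Mcfd2 from -0.045 to 0.173 and Tfpi2 from -0.100 to 0.312. Among relations, r of F13a1 with the macrophage mean was -0.316 with genotype means kept and -0.0114 within the 7 arrays. F8, which splits the arrays into 2 sets, had r = -0.455 with Vwf (permutation p = 0.118, adjusted p = 0.207; rho = -0.711, permutation p = 0.0292, adjusted p = 0.0511) and r = -0.205 with Lman1 (permutation p = 0.535, adjusted p = 0.577) over 11 arrays. Within the 7 arrays these r were 0.00678 and 0.0636. The cause of these changes was not tested.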
